A study of Homo sapiens with 30 samples.

Results

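The clustered protocadherin genes lie side by side on human chromosome 5 in the order alpha, beta, gamma. All genes whose symbol is PCDHA, PCDHB or PCDHG followed by the number or the letter and number of a family member were taken, which gave 55 genes of the 23261 in the table of clones. They are 15 alpha, 18 beta and 22 gamma genes. RefSeq (GRCh38.p14) lists all 55, but 2 of the beta symbols, PCDHB17 and PCDHB18, are named there as pseudogenes, so 53 of the 55 code for protein. RNA came from Rh30, an established alveolar rhabdomyosarcoma cell line that carries the fusion transcription factor PAX3-FOXO1. One experiment holds 10 libraries, all labelled as given DMSO: parental Rh30, with no tag, and clones 4, 10, 11 and 12, in which PAX3-FOXO1 carries FKBP, the tag that the compound dTAG uses to direct a protein to degradation, with 2 libraries in each of the 5 groups. The other experiment holds 20 samples of 2 tagged Rh30 lines, PAX3-FOXO1-FKBP and FOXO1-FKBP (the tag on wild-type FOXO1), each given DMSO or 500 nM dTAG for 2, 6, 24 or 72 h. Each clone is 1 derivation of the line, so what is shared by its libraries cannot be told apart from the history of that clone. The labels do not tie the tagged lines of the time course to a clone, and no protein was measured.

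Clustered protocadherins are cadherin-like adhesion molecules of the cell surface, best known from neurons. Every alpha and gamma gene supplies its own large first exon, which codes for the whole extracellular part and the membrane span and is spliced to constant exons shared by its cluster, while a beta gene is a single exon with no constant region. A cell typically uses only some of the alternate promoters (alpha 1 to 13, the beta genes, gamma A and gamma B) and keeps that choice in its daughters, and the C-type genes (PCDHAC1, PCDHAC2, PCDHGC3, PCDHGC4 and PCDHGC5) follow a more constitutive program. CTCF and cohesin loop the promoters to enhancers, and DNA methylation with the SETDB1 and SMCHD1 repressors keeps promoters closed.

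Many promoters of the family carry a conserved element with the core CGCT, and the stretch around a CGCT is shown for the members on which the results below turn, 1 group per cluster. RefSeq promoter entries of 300 bases (250 before and 50 after the start site, GRCh38.p14) were found for 47 of the 55 members, 13 alpha, 14 beta and 20 gamma. Each sequence is 32 bases of the + strand of chromosome 5, read 5′ to 3′, and the capitals mark CGCT. The promoters of PCDHGA3, PCDHGA4, PCDHGA6, PCDHGC3 and PCDHGC4 lack the 9-base gamma word given below. For them the CGCT followed by G was taken that lay nearest to its usual position in promoters with the word. Such a copy need not be the conserved element.
PCDHA5: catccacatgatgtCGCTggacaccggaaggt (chr5:140821544-140821575)
PCDHB2: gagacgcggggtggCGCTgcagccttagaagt (chr5:141094546-141094577)
PCDHB4: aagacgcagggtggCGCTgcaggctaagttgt (chr5:141121725-141121756)
PCDHB5: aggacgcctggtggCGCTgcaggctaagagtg (chr5:141135181-141135212)
PCDHB8: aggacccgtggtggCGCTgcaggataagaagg (chr5:141177779-141177810)
PCDHB12: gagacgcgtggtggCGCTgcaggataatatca (chr5:141208645-141208676)
PCDHGA3: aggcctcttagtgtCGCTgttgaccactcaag (chr5:141343769-141343800)
PCDHGB1: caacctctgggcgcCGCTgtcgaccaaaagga (chr5:141350027-141350058)
PCDHGA4: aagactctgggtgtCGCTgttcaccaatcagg (chr5:141354962-141354993)
PCDHGA6: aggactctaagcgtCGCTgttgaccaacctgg (chr5:141373837-141373868)
PCDHGA9: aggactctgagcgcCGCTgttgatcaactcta (chr5:141402716-141402747)
PCDHGB6: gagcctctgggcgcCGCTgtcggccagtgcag (chr5:141407926-141407957)
PCDHGC3: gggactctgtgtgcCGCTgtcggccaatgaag (chr5:141475882-141475913)
PCDHGC4: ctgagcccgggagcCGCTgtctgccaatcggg (chr5:141484954-141484985)
The most frequent 9-base word that holds CGCT differed by cluster. The bases next to the core can still be the same across clusters, as in PCDHA5, PCDHGA3 and PCDHGA4 above. Of 9-base words searched on both strands, GATGTCGCT was in 9 of 13 alpha promoters and in 0.105% of all 35116 RefSeq promoters. GGTGGCGCT was in 13 of 14 beta promoters and in 0.501% of all. GCGCCGCTG was in 10 of 20 gamma promoters and in 1.28% of all. No promoter of another protocadherin cluster held any of them. The words were chosen as the most frequent ones with CGCT in these promoters, so the counts describe and test nothing. CGCT itself, which is part of each word, was in 46 of 47 members but also in 70.0% of all promoters.

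Reads could not be assigned to single genes with equal certainty in the 3 clusters. Alpha genes share 2866 to 3428 bases of exon with another member and gamma genes 2181 to 4447, and how the authors' counting split reads of these exons was not given in the sources used here, so alpha and gamma values of single genes are uncertain. Beta genes share 0 bases of exon with another member, but their coding sequences are alike. A median of 14.29% of the 50-base words in a beta gene's own exon also occurred in another member, against 9.92% for alpha and 5.13% for gamma. The values were highest for PCDHB8 (45.78%) and PCDHB10 (35.39%), whose reads can be split with similar members. PCDHGB1, on which several results below rest, had 12.37%.

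The clone libraries held 17746684 to 26834005 counts and the pooled time-course columns 25863451 to 30466960. Separate cultures are not stated for the libraries of a group, so the spread behind each p-value may be technical. The counts of the 2 parental libraries differed by a chi-square of 1.83 per degree of freedom, while the pairs of clones 4, 10, 11 and 12 differed by 48.1, 19.2, 28.4 and 13.2. Of 6 myogenic markers (MYOD1, MYOG, DES, MYF5, CHRNG and CDH15), all but MYF5, which was at 0, were detected in every library, with a summed level of 2453 to 2456 CPM (counts scaled to library depth with TMM factors) in parental cells and 4418 to 6050 in the clones. Of 8 neuronal markers, 4 or 5 were at 10 or more counts in each library or column, and STMN2, ELAVL4 and SNAP25 were at 0 in most. Their sum was 81.1 to 87.3 CPM in parental cells, 147 to 183 in clones 4 and 10, 59.7 to 65.8 in clone 11 and 241 to 275 in clone 12, and its part in the values below was not tested. In these bulk samples, fewer cells that use a promoter and less RNA per cell cannot be told apart.

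Levels are compared between genes as CPM per kilobase of the longest GENCODE v29 transcript, as a mean over the 10 clone libraries. As counted, RNA came mainly from PCDHGC3 and a set of beta genes, with almost none from alpha genes. Of the exon bases of PCDHGC3, 40.2% are shared with another member, so its values can hold reads of other gamma genes. PCDHGC3, a C-type gene that codes for a gamma protein with the shared constant region, led the family at 52.3 CPM per kilobase. It was followed by PCDHB5 at 9.25, PCDHB2 at 6.72, PCDHB8 at 3.55, PCDHB10 at 2.92, PCDHB14 at 2.56 and PCDHGB1 at 2.52. Clone 10 set the place of PCDHGB1, which without its libraries averaged 1.19 and ranked 10 instead of 7, while the first 6 genes kept their order. The median was 0.837 over the beta genes, 0.162 over gamma and 0.00977 over alpha, and 9 beta, 2 gamma and 0 alpha genes reached 1.

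Alpha genes were at the edge of detection in every line. Their counts in a single library lay between 0 and 13 and the sum over all 15 genes between 0.482 and 1.71 CPM. PCDHA13 and PCDHAC1 had 0 counts in all 10 libraries, which allows up to 3 counts in each. PCDHA5 was the only alpha gene that passed the filter on low counts. Its counts were 3 and 4 in parental cells, 3 and 6 for clone 4, 7 and 10 for clone 10, 13 and 3 for clone 11 and 4 and 7 for clone 12. The groups overlapped and no clone passed the test (lowest adjusted p = 0.0649 in edgeR, clone 10). PCDHA1 had 3 and 0 counts in parental cells, 0 and 0 for clone 4, 9 and 6 for clone 10, 3 and 5 for clone 11 and 2 and 3 for clone 12. PCDHA4 had no count in either parental library, 3 and 0 for clone 4, 3 and 1 for clone 10, 2 and 2 for clone 11 and 4 and 6 for clone 12. The C-type PCDHAC2 had counts only in clone 10 (4 and 3) and in 1 clone 12 library (8 and 0). At such counts, differences between lines in a single alpha gene were not detectable at this depth.

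**Figure D1:**
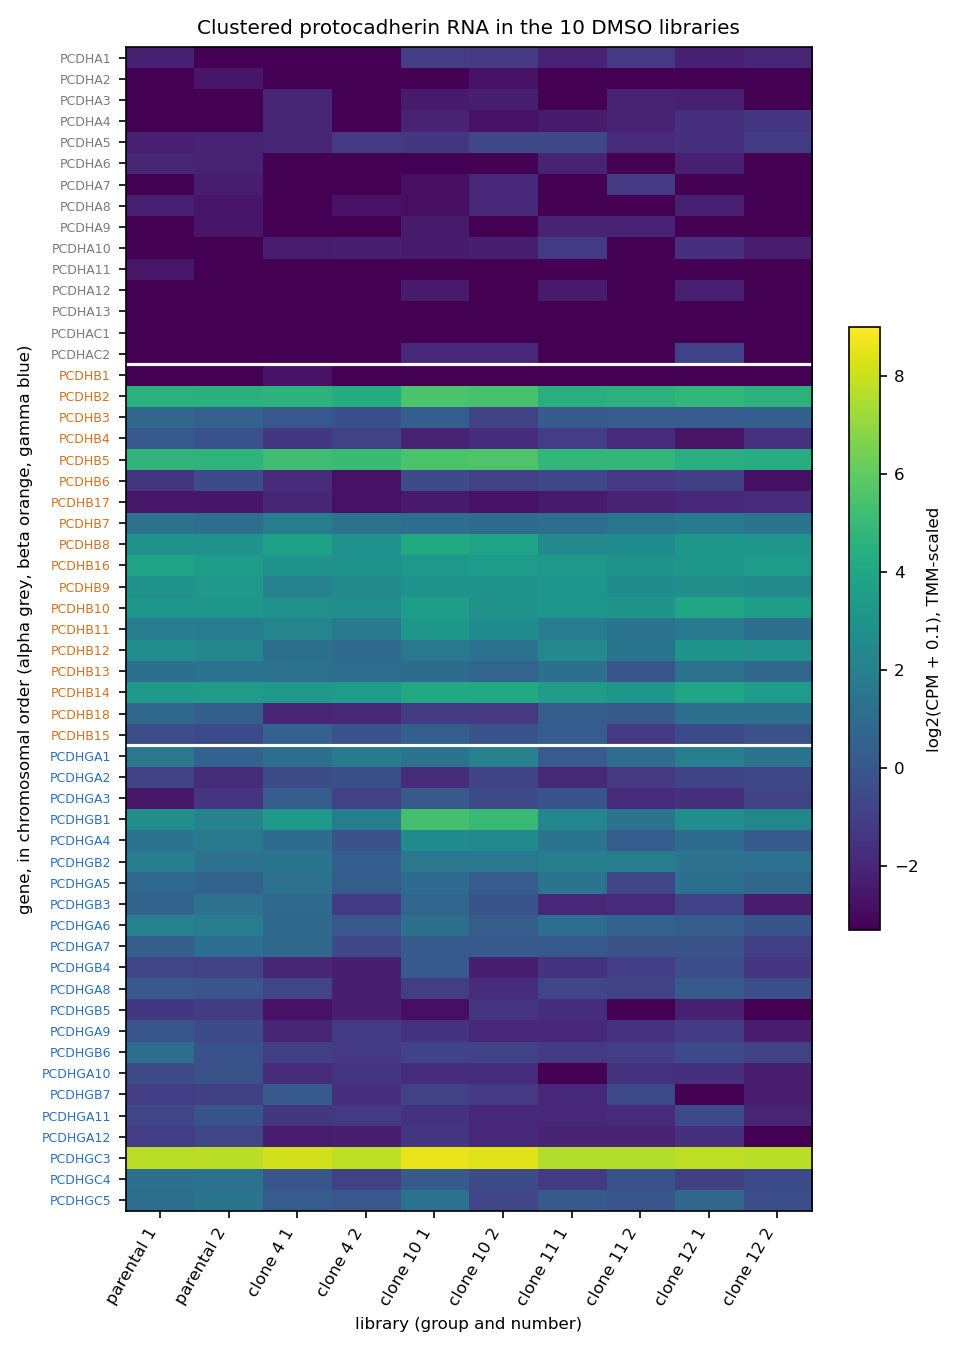
Level of each of the 55 genes (vertical axis, in chromosome order) in the 10 DMSO libraries of parental Rh30 and clones (horizontal axis), on a color scale of log2(CPM + 0.1). Several beta genes and PCDHGC3 stand out in every library, the alpha genes stay under 1 CPM, and PCDHGB1 is highest in both clone 10 libraries.

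Of the 55 genes, 37 passed the filter: 1 alpha, 16 beta (not PCDHB1 or PCDHB17) and 20 gamma (not PCDHGB5 or PCDHGA12). A gene could pass through a single line in which it is high, so counts over these 37 are a description of genes measured, not of the family. Each clone was compared with parental Rh30 in edgeR, with a call at an adjusted p under 0.05 over all 14175 genes tested. In clone 4, 2 of 37 members were higher and 9 lower, where 25.1% of all genes were called higher and 22.3% lower. In clone 10, 9 were higher and 9 lower, where 27.8% of all genes were higher and 24.2% lower. Clone 11 had 0 higher and 9 lower beside 26.5% higher and 25.1% lower among all genes, and clone 12 had 1 higher and 8 lower beside 27.8% and 24.7%. The members' lower calls (21.6% to 24.3% of 37) were near these backgrounds. The share called higher was 5.41%, 24.3%, 0% and 2.7% in clones 4, 10, 11 and 12, near the background in clone 10 and below it in the others, a difference that was not tested.

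These 4 comparisons share the parental libraries, and the counts lean on them. Without the first parental library the members called were 4, 7, 4 and 5 in clones 4, 10, 11 and 12, against 11, 18, 9 and 9 with all libraries. Without the second they were 6, 11, 3 and 4. Leaving out clone 10's second library left 9 calls in clone 10, leaving out clone 11's second library left 4 in clone 11, and leaving out the second clone 12 column left 4 in clone 12. DESeq2 called 5 members each in clones 11 and 12, all of them lower. Over all genes it called 3460 higher and 3648 lower in clone 11, and 3625 higher and 3611 lower in clone 12.

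PCDHGB1, an alternate gamma gene, had the largest change upward among the 37 members tested in the 4 clones. It stood at 6.79 and 4.38 CPM in parental cells, 10.1 and 3.54 for clone 4, 40.5 and 31.6 for clone 10, 4.90 and 2.60 for clone 11 and 6.39 and 4.94 for clone 12. Both clone 10 libraries lay far above the other 8, which overlapped one another. Its log2 change in clone 10 was 2.70 ± 0.42 (SE; edgeR adjusted p = 0.000474), and it lay between 2.41 and 3.04 and stayed called in all 16 alternative fits. In the parental and clone 11 libraries PCDHGB1 made up 16.5% to 23.3% of the counts of all gamma A and gamma B genes, in clone 4 it made up 35.1% and 24.3%, and in clone 12 27% and 29.7%. In clone 10 it made up 64.2% (exact binomial 95% interval 61.7% to 66.7%) and 61.5% (58.4% to 64.6%), intervals that cover counting error only. The gamma A and B genes summed to 63.1 and 51.4 CPM in clone 10 and to 14.6 to 31.6 in the other libraries. Without PCDHGB1 the clone 10 sums were 22.6 and 19.8, inside the range of 11 to 24.8 of the others.

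**Figure D2:**
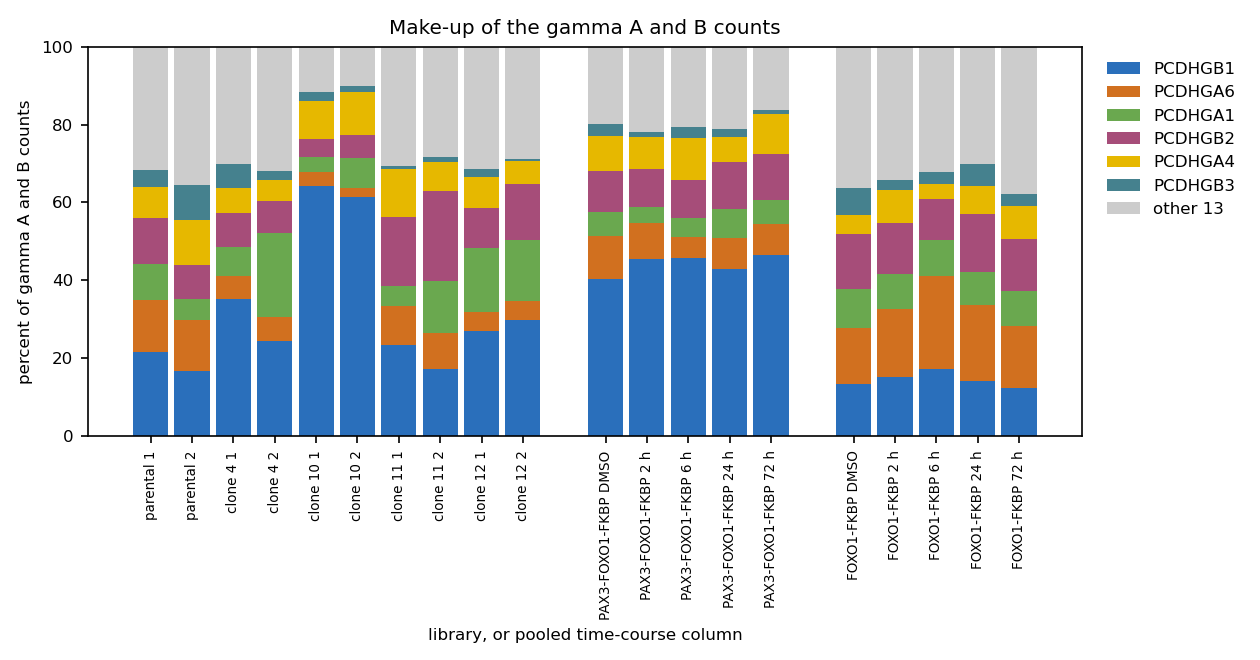
Stacked bars of the share of all gamma A and gamma B counts, in percent, that 6 leading genes and the other 13 took in each clone library and each pooled time-course column. PCDHGB1 takes over 60% in both clone 10 libraries and 40.4% to 46.5% in every column of the PAX3-FOXO1-FKBP time-course line, against 12.2% to 17.2% in the FOXO1-FKBP line.

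The genes on either side of PCDHGB1 were also called higher in clone 10, at lower counts. PCDHGA3, its upstream neighbour, had 2 and 8 counts in parental cells, 22 and 8 for clone 4, 23 and 12 for clone 10, 20 and 3 for clone 11 and 4 and 10 for clone 12. The clone 10 values lay above both parental ones, but the libraries of clones 4 and 11 were spread across the whole range. Its log2 change was 2.15 ± 0.76 in clone 10 and 2.09 ± 0.78 in clone 4 (edgeR adjusted p = 0.0347 and 0.0454). The clone 10 call was kept in 11 of 16 alternative fits and the clone 4 call in 5 of 15. Neither was called by DESeq2 or with scaling to library totals. PCDHGA4, its downstream neighbour, had 66 and 91 counts in parental cells, 37 and 15 for clone 4, 147 and 110 for clone 10, 63 and 18 for clone 11 and 33 and 20 for clone 12. Clone 10 was again highest in both libraries, with a log2 change of 1.10 ± 0.40 (edgeR adjusted p = 0.0403), a call that DESeq2 and library totals did not make and that ended without either library of parental cells or of clone 10. The promoter of PCDHGB1 holds GCGCCGCTG, and those of PCDHGA3 and PCDHGA4 do not. The same word is in the promoters of PCDHGA9 and PCDHGB6, which were called lower in clone 10. Its part in these values was not tested.

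PCDHGC3, the most abundant member, was also higher in clone 10. It stood at 209 and 213 CPM in parental cells, 288 and 224 for clone 4, 381 and 336 for clone 10, 191 and 188 for clone 11 and 230 and 209 for clone 12. Clone 10 lay above all other libraries, with a log2 change of 0.76 ± 0.14 (edgeR adjusted p = 0.00140), and the libraries of clone 4 lay above the parental ones without passing the test. PCDHGC3 took 85.1% to 93.4% of all gamma counts in the clone libraries. Its level, share and change depend on how reads of the shared gamma exons were split, which was not given. The gamma sum was 447 and 389 CPM in clone 10 and 205 to 319 elsewhere.

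Of the 9 genes called higher in clone 10, 5 were beta genes. PCDHB5, the leading beta gene, stood at 26.2 and 25.8 CPM in parental cells, 36.8 and 33.2 for clone 4, 45.9 and 48.2 for clone 10, 28.5 and 28.4 for clone 11 and 22 and 20.2 for clone 12. The 5 lines did not overlap in this gene. Its log2 change was 0.86 ± 0.13 in clone 10 (edgeR adjusted p = 0.000474) and 0.43 ± 0.13 in clone 4 (0.0206), the latter lost in 9 of 16 alternative fits, among them those without either parental library, without the first library of clone 4, without either clone 12 column, with library totals and with no filter. PCDHB2 stood at 23.2 and 22.9 CPM in parental cells, 24.5 and 19.6 for clone 4, 45.8 and 42.3 for clone 10, 22 and 24 for clone 11 and 28.6 and 24.4 for clone 12. Only clone 10 stood apart, by a log2 change of 0.94 ± 0.16 (edgeR adjusted p = 0.000715).

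PCDHB8 stood at 7.58 CPM in both parental libraries, 13.2 and 7.34 for clone 4, 17.5 and 14.2 for clone 10, 5.72 and 6.18 for clone 11 and 9.24 and 8.72 for clone 12. Its change of 1.07 ± 0.24 in clone 10 (log2, edgeR adjusted p = 0.00413) kept its call in all 16 alternative fits. PCDHB14 stood at 10.0 and 10.9 CPM in parental cells, 9.98 and 10.7 for clone 4, 18.1 and 18.0 for clone 10, 10.9 and 9.02 for clone 11 and 15.1 and 11 for clone 12. Clone 10 was again above every other library. PCDHB11 was the fifth beta gene called higher there. The beta genes summed to 176 and 164 CPM in clone 10 and to 102 to 128 in the other libraries.

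COL3A1, 1 of 4 fibroblast markers, was also higher in clone 10, and no other gene of that list was called there. The fibroblast list (DCN, LUM, PDGFRA and COL3A1) summed to 969 and 1001 CPM in clone 10 against 18.1 to 91.6 in the other libraries, with 2 or 3 of 4 genes at 10 or more counts in each. Nearly all of the sum was COL3A1, a fibrillar collagen, at 958 and 993 CPM in clone 10, a log2 change of 5.49 (edgeR adjusted p = 4.17e-06). LUM (-0.26) and PDGFRA (-0.78) were not called and DCN was under the filter. DCN was at 0 in 5 of the other libraries and LUM in 1 of them. The part of other cells in the clone 10 values was not tested.

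Other beta genes were lower in some clones. PCDHB18, a pseudogene in RefSeq, had 45 and 37 counts in parental cells, 3 and 3 for clone 4, 8 and 6 for clone 10, 28 and 16 for clone 11 and 38 and 44 for clone 12. Clones 4 and 10 lay below all others, with log2 changes of -3.20 ± 0.44 and -2.16 ± 0.38 (edgeR adjusted p = 0.000317 and 0.000943), and all 16 alternative fits kept both calls. PCDHB19P, a beta pseudogene that is not among the 55, had log2 changes of -2.95, -2.15, -1.47 and -0.91 in clones 4, 10, 11 and 12, all but the last called.

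PCDHB12, a coding gene, stood at 6.41 and 5.08 CPM in parental cells, 2.21 and 1.77 for clone 4, 2.99 and 2.40 for clone 10, 5.39 and 2.66 for clone 11 and 8.27 and 7.36 for clone 12. It was lower in clones 4 and 10 by log2 changes of -1.52 ± 0.32 and -1.08 ± 0.31 (edgeR adjusted p = 0.00317 and 0.0134), while clone 12 had the highest values. PCDHB4 had 25 and 23 counts in parental cells, 6 and 8 for clone 4, 3 and 4 for clone 10, 9 and 3 for clone 11 and 1 and 5 for clone 12. Every clone library was below the parental ones, and clones 10, 11 and 12 were called, with log2 changes of -2.35 ± 0.58, -1.53 ± 0.52 and -2.42 ± 0.60 (edgeR adjusted p = 0.00601, 0.0296 and 0.00603). Without 1 library of clone 10 or the first clone 12 column, the calls of those clones ended (adjusted p up to 0.0643). PCDHB10 was the only member called higher in clone 12. It stood at 9.02 and 9.16 CPM in parental cells, 7.32 and 6.48 for clone 4, 11.4 and 7.88 for clone 10, 9.09 and 8.09 for clone 11 and 15.7 and 11.8 for clone 12. The change of 0.59 ± 0.21 (log2, edgeR adjusted p = 0.0361) was lost in 7 of 14 alternative fits, DESeq2 and library totals among them.

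In the gamma cluster, 4 genes were called lower in all 4 clones: PCDHGC4, PCDHGA6, PCDHGA9 and PCDHGB6. They were 10.8% of the members tested, and 9.5% of all genes tested were called lower in all 4 clones. The C-type PCDHGC4 had 59 and 71 counts in parental cells, 17 and 8 for clone 4, 24 and 12 for clone 10, 8 and 12 for clone 11 and 7 and 12 for clone 12. All 8 clone libraries lay below both parental ones. The log2 changes were -1.83, -1.48, -2.17 and -2.21 (edgeR adjusted p = 0.00596, 0.0126, 0.00258 and 0.00241).

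The alternate gene PCDHGA6 had 112 and 105 counts in parental cells, 34 and 17 for clone 4, 53 and 22 for clone 10, 51 and 22 for clone 11 and 20 and 17 for clone 12. PCDHGA9 had 23 and 18 in parental cells, 3 and 6 for clone 4, 6 and 3 for clone 10, 4 and 4 for clone 11 and 6 and 2 for clone 12. PCDHGB6 had 53 and 23 in parental cells, 8 and 6 for clone 4, 11 and 8 for clone 10, 8 and 6 for clone 11 and 10 and 9 for clone 12. In each of these genes all clone libraries were below both parental libraries, and the parental pair of PCDHGB6 was itself spread. The number of members called lower in all 4 clones depended on the parental libraries: it was 0 without the first and 1 without the second. It was also 0 without the second library of clone 10, 2 with DESeq2 and 5 with library totals, which added PCDHB4. No member was called higher in all 4 clones, where 8.4% of all genes were.

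PCDHGB3 and PCDHGA10 were lower in clones 11 and 12. PCDHGB3 had 37 and 70 counts in parental cells, 35 and 6 for clone 4, 36 and 15 for clone 10, 4 and 3 for clone 11 and 8 and 2 for clone 12. Clones 11 and 12 did not overlap parental cells, with log2 changes of -3.40 ± 0.83 and -2.80 ± 0.78 (edgeR adjusted p = 0.00575 and 0.0110). The libraries of clones 4 and 10 were spread, at 1.76 and 0.321 CPM for clone 4 and 1.52 and 0.782 CPM for clone 10. PCDHGA10 had 16 and 22 counts in parental cells, 4 and 5 for clone 4, 5 and 4 for clone 10, 0 and 4 for clone 11 and 4 and 2 for clone 12. Its log2 change was -2.66 ± 0.80 in clone 11 and -2.06 ± 0.74 in clone 12 (edgeR adjusted p = 0.0164 and 0.0352), and DESeq2 called neither. The clone 11 call also ended without the second parental library and without the first library of clone 11, and its size ran from -6.97 to -1.49. The clone 12 call ended in 6 of 14 alternative fits, without either parental library or either clone 12 column among them.

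The remaining leading gamma genes overlapped across lines. PCDHGB2 stood at 3.75 and 2.36 CPM in parental cells, 2.56 and 1.18 for clone 4, 2.82 and 2.97 for clone 10, 3.73 and 3.46 for clone 11 and 2.45 and 2.42 for clone 12. The C-type PCDHGC5 had 56 and 77 counts in parental cells, 22 and 17 for clone 4, 58 and 10 for clone 10, 25 and 14 for clone 11 and 28 and 14 for clone 12. Its clone 10 libraries spanned nearly the whole range. Neither gene was called in any clone. In all, 13 of 37 members (35.1%) were called in no clone, against 15.2% of all genes. None was called higher in 1 clone and lower in another, against 7.24%. The 13 include members with few counts (mean 6 for PCDHA5 and 7.7 for PCDHGB7) and with more (53.3 for PCDHB7 and 60.5 for PCDHGB2). The part of low counts in these shares was not tested.

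**Figure D3:**
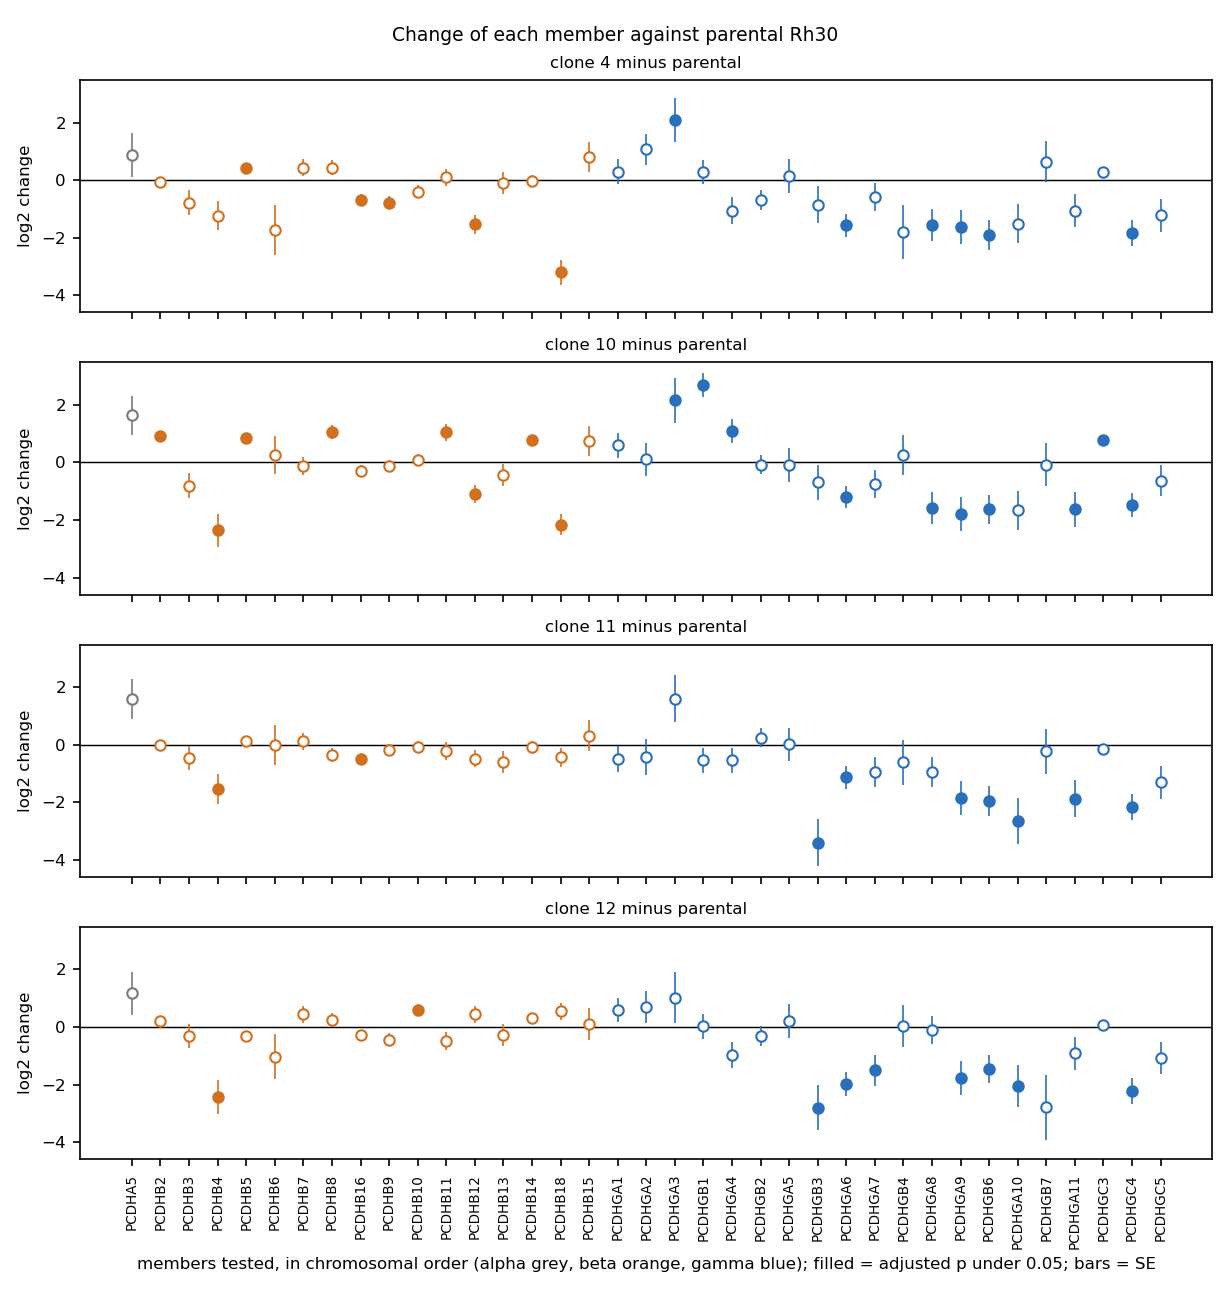
Log2 change of each tested member in clones 4, 10, 11 and 12 against parental Rh30, with genes in chromosome order, filled points for an edgeR adjusted p under 0.05 and bars for the standard error. Gamma genes from PCDHGA6 to PCDHGA11 lie mostly below 0 in every clone, and PCDHGA3, PCDHGB1 and PCDHGA4 lie above 0 in clone 10.

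By cluster, gamma genes lay further below 0 than beta genes. The median log2 change over the 16 beta genes was -0.24, -0.02, -0.20 and -0.09 in clones 4, 10, 11 and 12. Over the 20 gamma genes it was -0.95, -0.37, -0.78 and -0.95, and over all 14175 genes 0.05, 0.05, -0.00 and 0.03. Of the 20 gamma genes, 13, 13, 17 and 13 were below 0 in clones 4, 10, 11 and 12. Of all 14175 genes, 6733, 6729, 7114 and 6892 were. Transcript length moved with the changes of all genes: the Spearman correlation over 12587 genes was -0.10, -0.03, -0.36 and -0.30, a description over genes, which are not independent. Its part in the gamma values was not tested. With library totals in place of TMM scaling, the all-gene medians were -0.13, -0.06, -0.23 and -0.19, the share of called genes that were higher went from 53%, 53.5%, 51.3% and 52.9% to 38.5%, 44.7%, 35.5% and 36.6% over all genes, and the members called were 0 higher and 10 lower, 7 and 10, 0 and 9, and 0 and 12.

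A test of any difference among the lines asks whether the members vary from clone to clone, as a family with a clonal choice of promoters could. Among the 5 lines, 20 of 37 members (54.1%) were called in edgeR, 10 of 16 beta and 10 of 20 gamma, where 83.1% of all genes were called. Among the 4 clones alone, which leaves the parental libraries out of the contrast, 12 of 37 members (32.4%) were called, where 63.5% of all genes were. These 12 were the beta genes PCDHB2, PCDHB5, PCDHB8, PCDHB10, PCDHB11, PCDHB12, PCDHB14 and PCDHB18 and the gamma genes PCDHGA4, PCDHGB1, PCDHGB3 and PCDHGC3. Both member shares were below those of all genes, a difference that was not tested. All genes were not matched to the members by counts. Some members with few counts were called in neither test (mean 6 for PCDHA5, 7.9 for PCDHB6 and 7.7 for PCDHGB7). Others were called over the 5 lines (7.5 for PCDHGA9 and 6.6 for PCDHGA10). The part of low counts in these shares was not tested. PCDHB18 (adjusted p = 0.000123 in edgeR), PCDHGB1 (0.000153) and PCDHB5 (0.000207) had the lowest p over the 5 lines. None of the genes called lower in all 4 clones was among the 12, which does not show that the clones were equal in them.

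**Figure D4:**
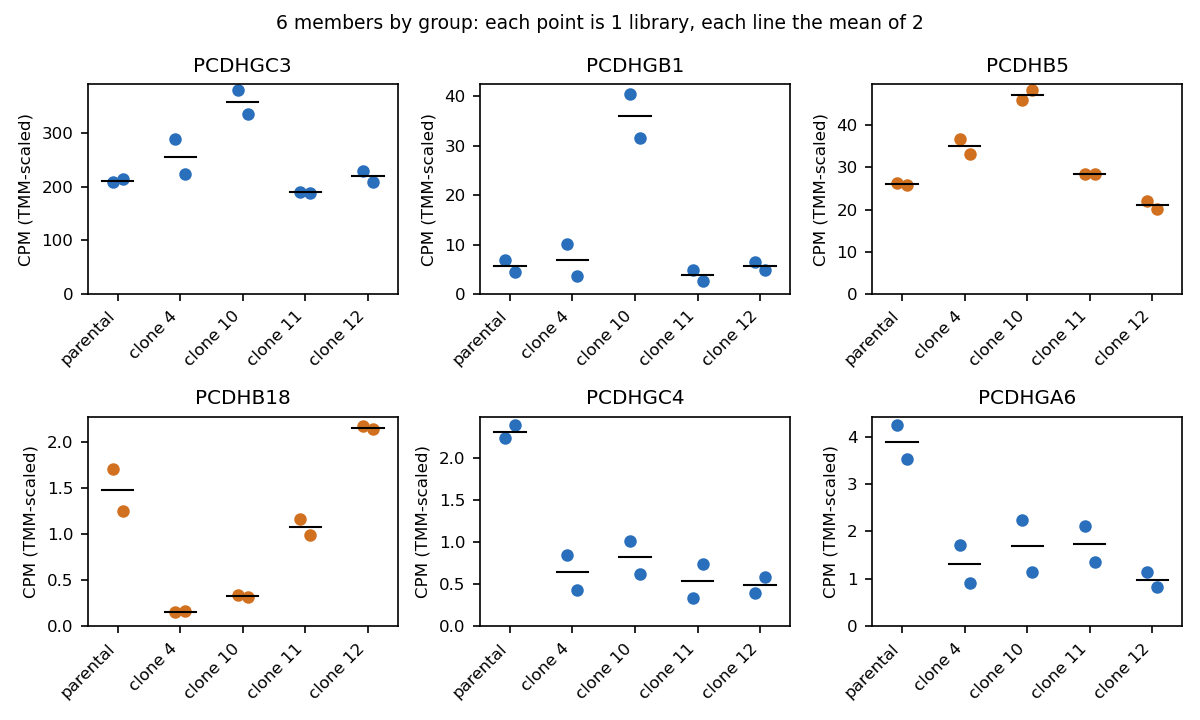
Level of 6 members in each of the 10 DMSO libraries, in CPM on a linear axis that starts at 0, with 1 point per library and a line at the mean of the 2. PCDHGB1, PCDHB5 and PCDHGC3 are highest in clone 10, PCDHB18 is lowest in clones 4 and 10, and PCDHGC4 and PCDHGA6 are highest in parental cells.

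In the time course each column pools the samples of a condition, so no test exists at a single time, and values are normalised estimated counts unless stated. A column was read as different at 2-fold or more against DMSO if its 5 columns averaged 50 or more, which 17 members met in each line (11 beta and 6 gamma in the PAX3-FOXO1-FKBP line, 12 and 5 in the FOXO1-FKBP line). No member held a listed 0 in a column where others of its line held at least 10 counts. A trend over log2 of hours plus 1 was tested in edgeR across the 5 columns, where p-values measure scatter around a line and not replicate error.

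No trend over the hours of dTAG was called for a member. In the PAX3-FOXO1-FKBP line 0 of 35 tested members were called, where 4.44% of all genes were (lowest adjusted p = 0.249 in edgeR, PCDHGB7), with 3 at an unadjusted p under 0.05 (PCDHGA2, PCDHGB6 and PCDHGB7). In the FOXO1-FKBP line 0 of 34 were called, as were 0% of all genes, with 0 members at an unadjusted p under 0.05. The difference in trend between the lines was called for 0 of 37, where 1.94% of all genes were called, with PCDHGB6 alone at an unadjusted p under 0.05. DESeq2 also called 0 members in each. Without the 24 h column PCDHGA2 was called in the PAX3-FOXO1-FKBP line, with a slope of -0.46 per doubling of hours plus 1 (edgeR adjusted p = 0.0333).

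By size, few members passed 2-fold. In the PAX3-FOXO1-FKBP line PCDHGA1 stood at 91.5 in DMSO and 38.7 at 2 h, a log2 difference of -1.20, and 1 of 17 members passed where 0.641% of all genes did. PCDHGA6 stood at 167 in DMSO and at 87.7, 54.2, 121 and 69.3 after 2, 6, 24 and 72 h, so that every dTAG column was below DMSO and the 24 h column was nearest to it. Its log2 difference was -1.59 at 6 h and -1.25 at 72 h. It was the only member past 2-fold at those times, where 1.82% and 6.45% of all genes passed, and 0 members passed at 24 h, where 3.1% of all genes did.

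The 2 h column of that line stood apart in markers of another cell type. All 10 B-lineage genes of a list were at 10 or more counts there (summed level 4097) against 1 to 3 of 10 in the other columns of the line (420 to 2786), in which MS4A1 was at 0. The part of such RNA in the 2 h values of PCDHGA1 and PCDHGA6 was not tested.

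In the FOXO1-FKBP line the members past 2-fold were both at 24 h. PCDHGA6 stood at 82.5 in DMSO and at 116, 127, 210 and 67.8 after 2, 6, 24 and 72 h, a log2 difference of 1.33 at 24 h. PCDHB8 stood at 140 in DMSO and at 170, 172, 291 and 125, a log2 difference of 1.04 at 24 h. The 24 h column was the highest for both genes and the 72 h column the lowest. These 2 of 17 stood beside 0.209% of all genes at 24 h, while 0 of 17 members passed at 2, 6 and 72 h, where 0.0751%, 0.0584% and 0.442% of all genes did.

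The gamma A and B genes lay mostly on 1 side of DMSO in a given column, and the beta medians lay nearer to 0. Over the 15 gamma A and B genes with a mean of at least 10, the median log2 difference from DMSO in the PAX3-FOXO1-FKBP line was -0.80, -0.59, -0.10 and -0.82 at 2, 6, 24 and 72 h, against -0.21, -0.15, 0.03 and -0.13 over 15 beta genes and values within 0.02 of 0 over all genes. At 72 h all 15 were below 0 and 6 of them by 2-fold or more, where 7086 and 515 of all 14101 genes with such a mean were. Between DMSO and 72 h in that line the summed myogenic markers went from 95258 to 145741 normalised counts, the neuronal ones from 3280 to 5209 and the B-lineage ones from 2786 to 420, and their part was not tested. In the FOXO1-FKBP line the gamma A and B medians were 0.09, -0.18, 0.84 and -0.48, against -0.01, -0.06, 0.15 and -0.17 for beta. At 24 h 14 of 15 gamma A and B genes were above 0 there, as were 6877 of all 13742 genes. The gamma A and B medians farthest from 0 were -0.82 at 72 h in the PAX3-FOXO1-FKBP line and 0.84 at 24 h in the FOXO1-FKBP line, of opposite sign. The part of either tagged protein in them was not tested. The gamma A and B genes share exons, all differences within a line share 1 DMSO column, and with 1 column per condition the shifts have no error. Across all genes the Spearman correlation of the difference with transcript length was -0.27, -0.23, -0.02 and -0.25 in the PAX3-FOXO1-FKBP line and -0.03, -0.30, 0.26 and -0.42 in the FOXO1-FKBP line. It was nearest 0 or positive in the columns where the gamma A and B median was highest, and its part in those medians was not tested.

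**Figure D5:**
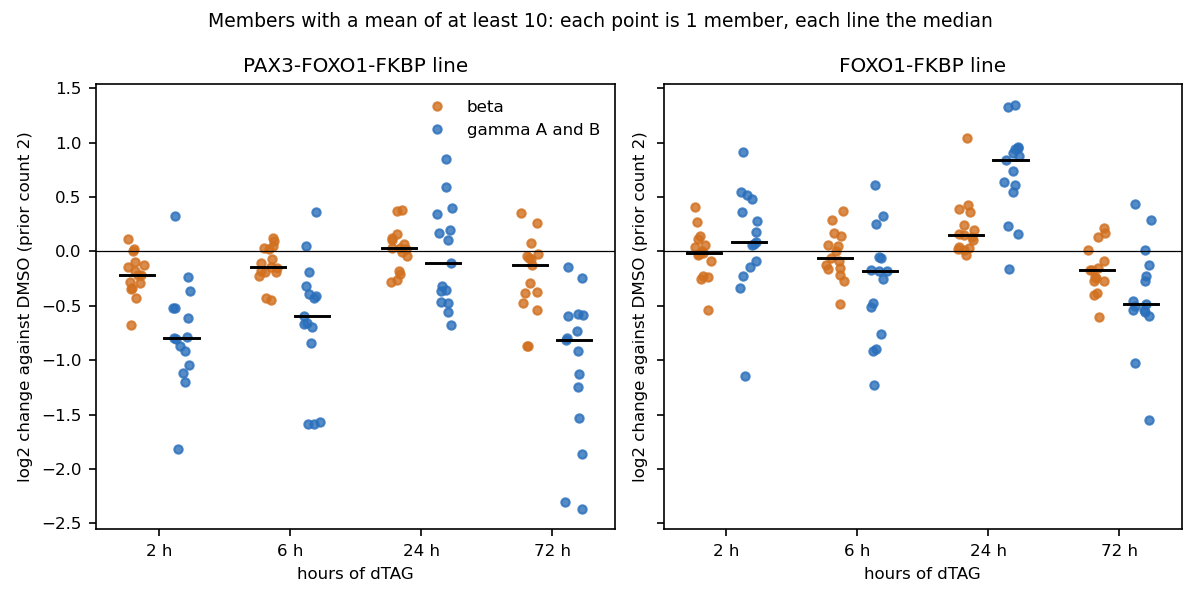
Log2 difference from the DMSO column of each beta and each gamma A or B gene with a mean of at least 10 normalised counts, by hours of dTAG (2, 6, 24 and 72), in the PAX3-FOXO1-FKBP and FOXO1-FKBP lines, 1 point per gene and a bar at the median. Gamma A and B genes lie mostly below 0 at 2, 6 and 72 h in the first line and mostly above 0 at 24 h in the other, and the beta medians stay nearer to 0.

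Several members stood at levels that did not overlap between the tagged lines at any time, set side by side without a test. Estimated counts are not scaled to depth, and normalised counts were scaled in each line separately. The columns held 27561650 to 30466960 counts in the PAX3-FOXO1-FKBP line and 25863451 to 27381073 in the FOXO1-FKBP line. How many of all genes did not overlap between the lines was not counted. The values thus describe these members and are not shown to be a trait of the family. PCDHGB1 had 636, 446, 455, 635 and 397 estimated counts in DMSO and at 2, 6, 24 and 72 h in the PAX3-FOXO1-FKBP line and 77, 99.7, 88.4, 153 and 52.4 in the FOXO1-FKBP line. It took 40.4% to 46.5% of gamma A and B counts in the former and 12.2% to 17.2% in the latter, with no overlap between lines. PCDHB18 went the other way, with 9.13, 7.94, 7.76, 7.67 and 7.43 in the PAX3-FOXO1-FKBP line and 92.9, 87.3, 63.5, 105 and 70.6 in the FOXO1-FKBP line. PCDHGC3 had 7321 to 8548 estimated counts in the former and 3281 to 4377 in the latter. COL3A1, which made up most of the summed fibroblast list in every column, stood at 18176 to 25766 normalised counts in the PAX3-FOXO1-FKBP line and 2686 to 4149 in the FOXO1-FKBP line. PDGFRA was also higher in the former (164 to 630 against 45.2 to 83.4), whereas LUM (4.19 to 54.9 against 48.6 to 67.4) and DCN (1.61 to 47.5 against 2.07 to 9.22) overlapped. Alpha genes stayed at or under 12.8 estimated counts in every column of both lines. PCDHAC2 had 5.79, 10.3, 7.12, 2.08 and 1.05 estimated counts in the FOXO1-FKBP line, too few to read an order.

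Genes that act on this family were described from lists. Of 11 tested CTCF, cohesin and looping genes, 1, 2, 0 and 0 were higher and 5, 5, 8 and 7 lower in clones 4, 10, 11 and 12 in edgeR, where 25.1% to 27.8% of all genes were higher and 22.3% to 25.1% lower. Their median log2 changes were -0.36, -0.22, -1.01 and -0.73, against 0.05, 0.05, -0.00 and 0.03 over all genes. The cohesin subunits STAG2 (-1.40, -1.59, -1.01 and -1.30 on the log2 scale) and SMC3 (-0.85, -0.86, -1.15 and -1.21) and the cohesin-binding PDS5A and PDS5B were lower in all 4 clones. RAD21, another subunit, was higher in clone 4 (0.63) and lower in the others (-0.66, -1.23 and -0.73). CTCF, which binds the promoters, was called in no clone (0.15, 0.17, -0.34 and -0.11). Of 22 repression and methylation genes, 8, 8, 4 and 6 were higher and 5, 4, 7 and 8 lower, counts on both sides of the same shares of all genes, with medians of 0.18, 0.25, -0.17 and -0.06. The methyltransferase gene DNMT3B was higher in clone 10 (0.90, edgeR adjusted p = 0.00323), and the repressor SMCHD1 was lower in clones 11 and 12 (-1.50 and -0.95, 0.000315 and 0.00326). SETDB1 was higher in clones 4 and 10 (0.56 and 0.45, 0.0196 and 0.0474). Both lists had 0 called trends in either line. The part of these genes in the protocadherin values was not tested. The all-gene correlation of change with transcript length was -0.10, -0.03, -0.36 and -0.30 in clones 4, 10, 11 and 12. Its part in the changes of these lists was not tested.

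Among 19 signalling partners, which take part in the kinase and actin responses downstream of these proteins, 6, 7, 5 and 3 were higher and 4, 1, 6 and 5 lower, also on both sides of the 25.1% to 27.8% higher and 22.3% to 25.1% lower of all genes. Their medians were -0.12, 0.16, -0.09 and -0.07. FYN, a kinase, was higher in clones 10 and 11 (0.83 and 0.58, edgeR adjusted p = 0.000428 and 0.00309), and PRKCA, a protein kinase, fell over hours in the PAX3-FOXO1-FKBP line (slope -0.20, edgeR adjusted p = 0.0117). Of 10 non-clustered protocadherins, 4, 4, 4 and 3 were higher and 3, 1, 1 and 1 lower beside those shares, with medians of 0.61, 0.85, -0.13 and -0.22. PCDH10 was higher in every clone (3.07, 2.31, 1.94 and 1.75). PCDH12, which lies near the clusters on chromosome 5, fell over hours in the PAX3-FOXO1-FKBP line (slope -0.69, adjusted p = 0.0122 in edgeR), and its trend differed between the lines (-0.62, 0.0302). Of 23 other genes around the clusters, 3, 7, 11 and 10 were higher and 3, 1, 1 and 1 lower in clones 4, 10, 11 and 12, with the higher counts on both sides of 25.1% to 27.8% and medians of 0.04, 0.18, 0.30 and 0.29. HARS, upstream of the alpha cluster, was higher in all 4 clones (0.46, 0.42, 0.96 and 0.69), and TAF7, between the beta and gamma clusters, was lower in clone 4 (-0.40, edgeR adjusted p = 0.0386).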

How the data were processed

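Per the submitters' processing notes, the tools were Trimmomatic 0.32, Bowtie2 and Cuffdiff 2.1.1 with build hg19, with roles and annotation not given in the sources used here. Raw read counts of the clone libraries were deposited by the authors, 1 column per library. Estimated counts of the time course were deposited by the authors with 1 pooled column per condition, and were rounded for tests. All genes were fitted with edgeR 4.0.16 in R 4.3.3 (quasi-likelihood, TMM, minimum count 10), over the 10 clone libraries with 1 mean per group (5 residual degrees of freedom) or over the columns of a line (3, or 6 for the difference), with Benjamini-Hochberg adjustment, and checked on simulated data. A prior count of 2 was added for log2 differences in the time course. Alternatives were DESeq2 1.42.0, library totals, no filter and leaving out libraries. Named were the C-type genes, the 3 highest per cluster, up to 4 called per clone and direction, the 6 lowest p over the lines, those past 2-fold in the time course and up to 3 called genes of other lists per comparison. Others were chosen after their values were seen. Members and lists were chosen with earlier results of these data known. Symbols were matched to RefSeq and GENCODE v29, on another build than hg19.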

Additional observations from a re-analysis of the deposited data

How the results depend on the processing

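Against parental Rh30, 11, 18, 9 and 9 members were called in clones 4, 10, 11 and 12, 20 over the 5 lines and 12 over the 4 clones. With 1 library left out the counts ranged from 4 to 13, 7 to 18, 3 to 10, 4 to 12, 13 to 23 and 10 to 14. DESeq2 called 5 in clone 11 and 5 in clone 12, and without a filter 14 were called in clone 12. The trend in the PAX3-FOXO1-FKBP line had 1 call without the 24 h column and 0 otherwise. With a mean of at least 10 in place of 50, 4, 3 and 6 members passed 2-fold at 2, 6 and 72 h in that line (1, 1 and 1 before) and 1, 1 and 2 in the FOXO1-FKBP line (0, 0 and 0 before). All of these were lower. At those times 92, 256 and 515 of all 14101 genes were lower by 2-fold or more in the former line. In the FOXO1-FKBP line 25, 23 and 95 of all 13742 genes were. With library totals 4 members passed at 24 h in the FOXO1-FKBP line (2 before). Of 230 refits of named genes with 1 library left out, 179 kept the call and 51 lost it with the direction unchanged, and 8 of 23 lost it with DESeq2. Replicate numbers were not taken to pair the samples: correlations of same-numbered deviations were 0.547, 0.201 and 0.172 between clones 4, 10 and 11 but 0.00908 to 0.0464 with parental cells. All 6 were above 0, a hint from the data and not the design, and in each of the 5 groups the gamma A and B sum was higher in the first column. With the replicate block, which leaves out clone 12, 13, 19 and 11 members were called in clones 4, 10 and 11, 22 over the lines and 11 over the clones, against 10, 18, 9, 21 and 10 without the block on those libraries, the latter chosen after seeing the data. Low counts limit the alpha genes and most gamma A and B genes.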
